A study of Homo sapiens with 6 samples.

Results

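The genes described here encode the enzymes that carry glucose down the upper part of glycolysis, from hexokinase to phosphoglycerate kinase: HK1, HK2, HK3, GPI, ALDOA, ALDOC, TPI1, GAPDH and PGK1. They were chosen by their HGNC symbols, and all 9 were found among the 23227 genes of the count table. RNA sequencing was carried out on MV4-11, a long-established cell line from a human acute myeloid leukaemia, in 2 groups of 3 libraries. The control libraries are labelled as wild type with no treatment and carry the letters NC in their titles, which the labels do not spell out. The knockdown libraries are labelled as wild type with a knockdown of ENO1, the enolase that acts further down the same pathway. Their column names carry the name of 1 hairpin, so effects of that hairpin and effects of ENO1 loss cannot be told apart. Whether the controls carried a control hairpin is not stated, nor whether each library had its own culture. The p-values therefore cover the variation among these libraries alone, and it could be technical.

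Glycolysis turns glucose into pyruvate in the cytosol. Hexokinase traps glucose as glucose 6-phosphate, GPI converts it to fructose 6-phosphate, and phosphofructokinase adds a further phosphate. Aldolase then splits the sugar into a pair of triose phosphates that TPI1 interconverts, GAPDH oxidises glyceraldehyde 3-phosphate while making NADH, and PGK1 makes the pathway's earliest ATP. Several steps have isozymes from separate genes. HK1 is the widely expressed hexokinase, HK2 the inducible form of muscle, fat and many tumours, and HK3 a form found mainly in myeloid cells. HK1 and HK2 can dock on the mitochondrial outer membrane, where VDAC1 is a partner. ALDOA is the aldolase of muscle and most tissues and ALDOC that of brain.

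The libraries held 20044602 to 26373960 counts. ENO1 averaged 3262 ± 22.6 CPM in control and 102.1 ± 1.25 CPM in knockdown libraries (SD, n = 3), so that 3.13% of the control level remained. CPM are counts per 1000000 counts of the library, with library sizes scaled by the TMM method of edgeR. Of 14 myeloid markers all were in the table, with FLT3 at 808 CPM and CD33 at 126 CPM in the controls, while the monocyte marker CD14 and the macrophage marker CD68 were below 1 CPM in both groups. The summed level of 3 epithelial markers ran from 18.1 to 19.98 CPM in the controls and from 44.9 to 47.8 CPM in the knockdown libraries, from KRT8 and KRT18, with EPCAM at 0 counts in the controls and 2 in the knockdown libraries, and CDH1 not analysed here. Both keratin genes rose, by 1.48 and 1.13 on the log2 scale. B cell markers summed to 3.28 to 4.59 and 4.22 to 6.04 CPM, with CD79A higher by 1.68 on the log2 scale from 0.26 CPM, T cell markers to at most 0.279 CPM and fibroblast markers to at most 0.541 CPM in any library, and erythroid markers were not analysed here. Mitochondrially encoded genes took 6.69 to 6.88% of the control counts and 9.27 to 9.69% of the knockdown counts. The part of the epithelial and mitochondrial differences in the results below was not tested. Every member's direction was the same with the mitochondrial genes removed, but that step only rescales the libraries and cannot show such a part. In bulk RNA, fewer cells of a type and less RNA per cell cannot be told apart.

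The DNA just before the RefSeq starts of PGK1, ALDOC, HK2 and GAPDH is shown as examples from the members that fell in the knockdown cells, and that of HK3 because it rose. HK1, GPI, TPI1 and ALDOA also fell, and their sequences are not shown. Each is the 250 bases before a start on GRCh38.p14, written 5′ to 3′ on the strand of the gene. Capitals mark every ACGTG on either strand. These letters are 1 form of the core of the hypoxia response element bound by HIF. The other form, GCGTG, was neither marked nor counted. A run of CACGTG is the E-box bound by MYC and MAX, which holds an ACGTG on each strand. The stretches lie at chrX:78103998-78104247 for PGK1, chr17:28576896-28577145 on the minus strand for ALDOC, chr2:74833877-74834126 and chr2:74834920-74835169 for the upstream and downstream starts of HK2, chr12:6535014-6535263 for GAPDH and chr5:176899347-176899596 on the minus strand for HK3.
PGK1: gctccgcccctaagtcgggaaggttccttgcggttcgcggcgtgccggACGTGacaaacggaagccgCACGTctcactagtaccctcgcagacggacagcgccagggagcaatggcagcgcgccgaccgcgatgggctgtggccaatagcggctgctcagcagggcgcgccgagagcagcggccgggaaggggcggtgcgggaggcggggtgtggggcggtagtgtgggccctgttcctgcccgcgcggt
ALDOC: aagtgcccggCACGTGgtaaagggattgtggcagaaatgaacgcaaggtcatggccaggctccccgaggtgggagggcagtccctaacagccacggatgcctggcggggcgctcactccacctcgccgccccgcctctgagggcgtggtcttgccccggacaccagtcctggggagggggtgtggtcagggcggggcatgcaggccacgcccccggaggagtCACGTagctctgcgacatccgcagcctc
HK2 upstream start: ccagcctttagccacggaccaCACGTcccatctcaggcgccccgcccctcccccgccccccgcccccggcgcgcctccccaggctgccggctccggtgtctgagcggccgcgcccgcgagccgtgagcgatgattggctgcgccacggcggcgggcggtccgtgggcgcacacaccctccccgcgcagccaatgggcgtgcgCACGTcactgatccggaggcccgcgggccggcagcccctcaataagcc
HK2 downstream start: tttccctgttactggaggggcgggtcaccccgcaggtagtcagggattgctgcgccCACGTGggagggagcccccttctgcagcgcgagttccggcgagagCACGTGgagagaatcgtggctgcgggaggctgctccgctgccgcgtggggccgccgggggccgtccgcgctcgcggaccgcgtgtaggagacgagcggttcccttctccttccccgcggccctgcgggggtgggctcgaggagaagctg
GAPDH: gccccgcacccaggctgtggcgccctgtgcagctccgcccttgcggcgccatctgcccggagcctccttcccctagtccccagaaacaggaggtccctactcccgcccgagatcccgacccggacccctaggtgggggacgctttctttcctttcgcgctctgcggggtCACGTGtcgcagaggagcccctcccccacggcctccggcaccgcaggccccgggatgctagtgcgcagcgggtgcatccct
HK3: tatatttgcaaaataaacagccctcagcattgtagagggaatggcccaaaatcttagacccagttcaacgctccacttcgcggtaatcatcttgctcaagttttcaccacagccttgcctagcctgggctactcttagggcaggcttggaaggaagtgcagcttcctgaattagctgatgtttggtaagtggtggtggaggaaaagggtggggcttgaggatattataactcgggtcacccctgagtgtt
PGK1 held 2 matches to ACGTG, whose leftmost bases lay at -202 and -183 counted from the start, and no CACGTG. ALDOC held a CACGTG at -240 and a further ACGTG match at -28. HK2 held matches at -229 and -48 before its upstream start and CACGTG at -194 and -149 before its downstream start. GAPDH held 1 CACGTG, at -81. Its stretch, like those of PGK1, ALDOC and the downstream start of HK2, lay wholly inside its GENCODE 29 gene model. For GAPDH that model starts at 6533927, and no start upstream of the stretch shown was searched. HK3 held neither set of letters, and nor did any of the 7 windows of HK1. In all, 7 of the 9 members had an ACGTG in at least 1 of their windows, against 28.6% of the 10540 tested genes that matched the RefSeq table. By window, the letters occurred in 10 of the members' 19 windows and in 18.5% of all 35116 windows. Those 35116 include windows of genes that were not tested, and by gene the share over all 27305 genes was 21.7%. CACGTG occurred for 4 of the 9 members and for 11.2% of the tested genes. Members with several starts had more windows to match in. A match describes letters only, and its absence says nothing about the factors.

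Most of the upper pathway was lower in the knockdown cells. Of the 9 members, 8 fell and 1, HK3, rose at an adjusted p below 0.05 (edgeR quasi-likelihood test, Benjamini-Hochberg over all 14635 genes tested). All 9 passed the filter on low counts. Across all genes tested, 30.5% were called lower and 29.4% higher, 59.9% in either direction. The fitted log2 fold changes of the members that fell ran from -0.82 for HK2 to -0.22 for GAPDH, and the median of all 9 was -0.48 beside 0.00 for all genes tested. In each of the 9 members the libraries of one group lay wholly above those of the other, as they did for 64.3% of all genes tested. The 9 genes together took 0.632, 0.615 and 0.634% of the control counts and 0.502, 0.503 and 0.498% of the knockdown counts.

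**Figure D1:**
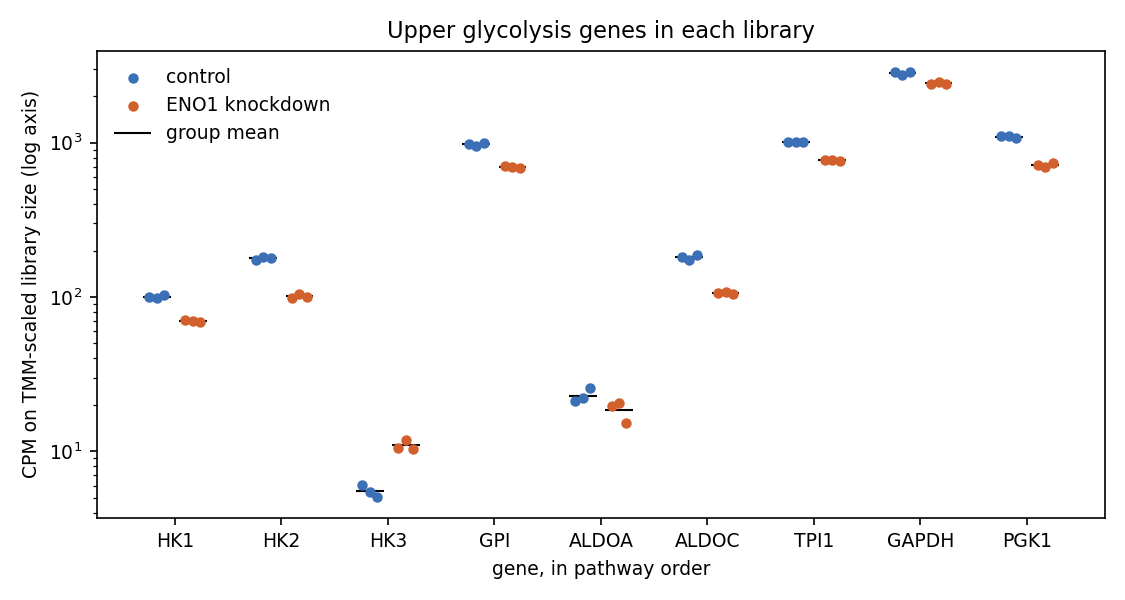
Level of each gene in every library, in CPM on a log axis, with genes in pathway order; points are libraries (3 control, 3 ENO1 knockdown) and black bars are group means. The knockdown points lie below the control points for 8 genes and above them for HK3.

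**Figure D2:**
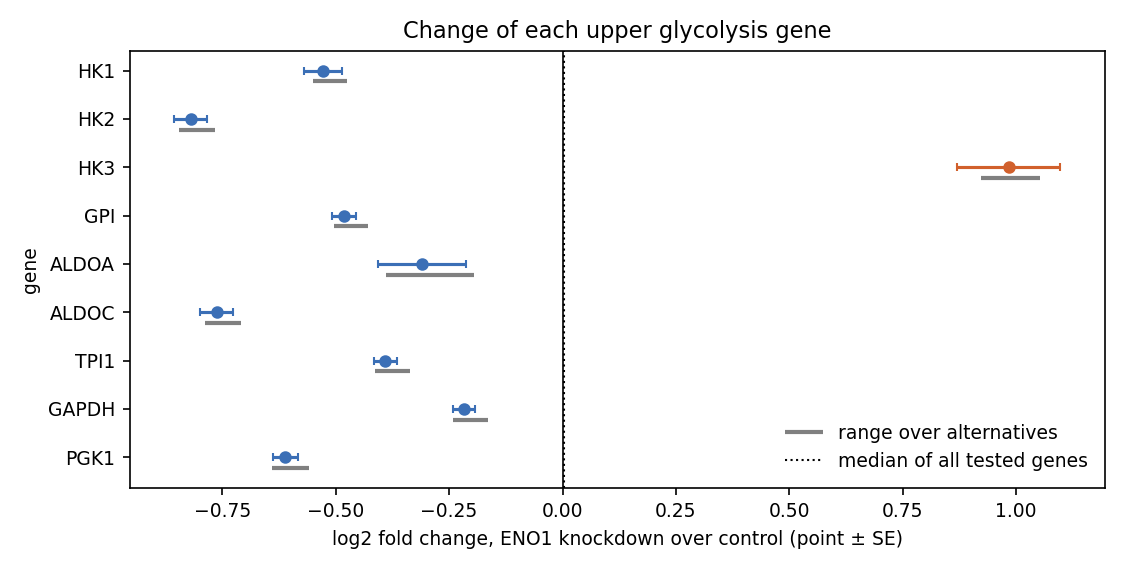
Log2 fold change of each gene, ENO1 knockdown over control, as a point with its approximate standard error; grey bars give the range over the alternative settings and the dotted line the median of all tested genes. The range of each gene stays on 1 side of 0, from HK2 at -0.82 to HK3 at 0.98.

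Among the hexokinases, HK2 and HK1 fell and HK3 rose. HK2 (ENSG00000159399, GRCh38 chromosome 2, 74833981 to 74893359, plus strand) was at 174, 182 and 179.6 CPM across the controls, against 98.4, 104 and 101 CPM after knockdown. All knockdown values were well below the lowest control. The mean went from 178 ± 4.24 to 101 ± 2.89 CPM (SD, n = 3), 56.6% of the control level, the largest relative fall among the members. Its log2 fold change was -0.82 (approximate SE 0.04, edgeR adjusted p = 6.74e-17).

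HK1 (ENSG00000156515, chromosome 10, 69269984 to 69401884, plus strand) was at 100.3, 97.9 and 103 CPM across the controls, against 70.6, 69.5 and 69.0 CPM after knockdown. The knockdown libraries were nearly alike and lay wholly below the controls. HK1 thus changed by -0.53 on the log2 scale (SE 0.04, edgeR adjusted p = 1.29e-11), and 69.4% of the control level was left.

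HK3 (ENSG00000160883, chromosome 5, 176880869 to 176899332, minus strand) had the fewest counts of the members. It had 157, 132 and 124 counts in the controls and 227, 260 and 212 in the smaller knockdown libraries, or 6.05, 5.41 and 5.09 CPM against 10.6, 11.8 and 10.4 CPM. The knockdown libraries were the higher ones in raw counts as well as in CPM. The mean rose from 5.52 ± 0.492 to 10.9 ± 0.759 CPM (SD, n = 3). This is a change of 0.98 on the log2 scale, SE 0.11 (edgeR adjusted p = 2.50e-08). HK3 is mainly found in myeloid cells. Of the myeloid markers, 8 of 13 tested were higher and 3 lower, against 29.4% and 30.5% of all genes tested. The markers that fell were the granule enzymes MPO and LYZ and the transcription factor SPI1, with log2 fold changes of -2.61, -2.41 and -0.33. The largest rises were those of the aminopeptidase ANPEP at 2.04, the leukocyte phosphatase PTPRC at 1.10, the homeobox gene MEIS1 at 0.79 and the fucosyltransferase FUT4 at 0.35. Their relation to HK3 was not tested.

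Per kilobase of the longest annotated transcript, HK2 made up 52.7, 54.6 and 53.1% of the hexokinase signal in the controls and 44.7, 45.9 and 45.8% of it after knockdown. The HK2 share was thus lower in every knockdown library, by 7.97 percentage points on average. HK3 made up 3.45, 3.05 and 2.83% in the control libraries and 9.02, 9.80 and 8.92% after knockdown. HK1 was at 43.4 ± 0.938% and 45.3 ± 1.01% (SD, n = 3). In the knockdown cells HK1 and HK2 stood at nearly the same level per kilobase, 17.4 and 17.5 CPM per kilobase, with overlapping libraries, whereas in the controls HK2 was above HK1, at 30.9 against 25.1 CPM per kilobase. These shares depend on the transcript length taken. With the median transcript length the HK1 share was lower rather than higher in the knockdown libraries, 69.98% against 75.4%, and HK2 was at 14.0% against 18.5%.

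**Figure D3:**
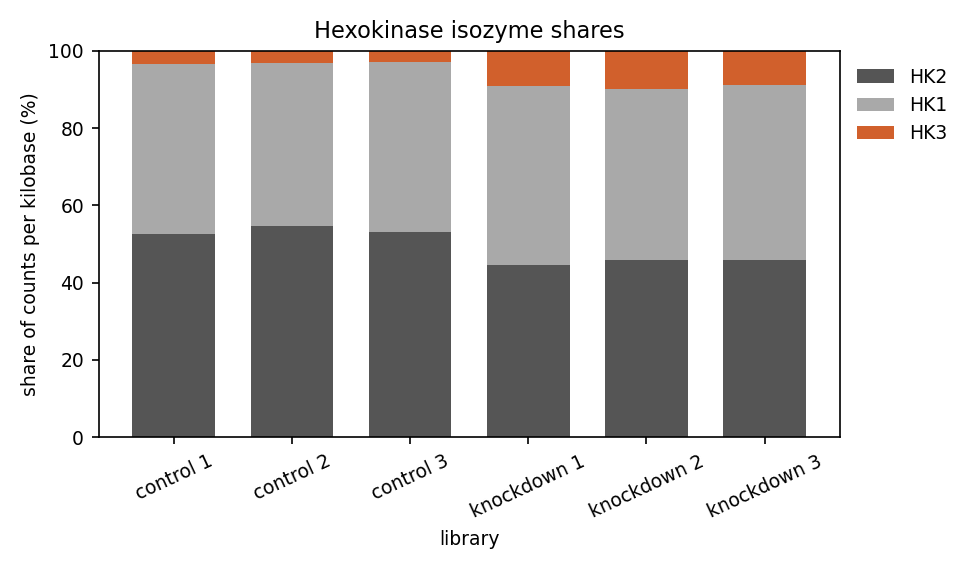
Share of HK2, HK1 and HK3 in the counts per kilobase of the hexokinase step, in percent, with 1 stacked bar per library (3 control, 3 ENO1 knockdown). The HK3 segment takes 2.83 to 3.45% in the control libraries and 8.92 to 9.80% in the knockdown libraries, and the HK2 segment is smaller in the latter.

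Ratios between isozymes within a library depend neither on library scaling nor, in their change, on transcript length. The log2 ratio of HK2 to HK1 counts was 0.83 ± 0.06 without and 0.54 ± 0.05 with the knockdown (SD, n = 3), a difference of -0.29. The ratio was lower in each knockdown library than in any control, by more than the spread within a group. The log2 ratio of HK3 to HK1 went up by 1.51 and that of HK2 to HK3 down, by -1.81. For each of the 3 hexokinase ratios and for ALDOC over ALDOA, 4 in all, the groups did not overlap, and the exact two-sided permutation test over libraries gave p = 0.10, also after Benjamini-Hochberg adjustment. That is the smallest p that 3 libraries against 3 allow. The summed hexokinase level per kilobase went from 57.9 ± 0.726 to 38.5 ± 0.665 CPM per kilobase (SD, n = 3; exact permutation p = 0.10), 66.6% of the control level.

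GPI (ENSG00000105220, chromosome 19, 34359480 to 34402413, plus strand), the isomerase after hexokinase, was at 974, 954 and 992 CPM across the controls, against 709, 699 and 685 CPM after knockdown. The groups were far apart relative to their spread. On the log2 scale the change was -0.48 (SE 0.03; edgeR adjusted p = 1.03e-14). Of the coding bases of GPI, 10.3% are shared with exons of an overlapping gene model on the same strand in GENCODE 29.

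At the aldolase step both genes fell, and ALDOC carried most of the counts per kilobase. ALDOC (ENSG00000109107, chromosome 17, 28573115 to 28577264, minus strand) was at 181, 175 and 187 CPM across the controls, against 106, 108 and 105 CPM after knockdown. Every knockdown library was lower than every control, and 58.9% of the control level was left. ALDOC thus changed by -0.76 on the log2 scale (SE 0.04, edgeR adjusted p = 2.86e-16), close to that of HK2.

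ALDOA (ENSG00000149925, chromosome 16, 30064164 to 30070457, plus strand) was at 21.1, 22.3 and 25.6 CPM across the controls, against 19.8, 20.5 and 15.3 CPM after knockdown. The groups came close to each other, and the knockdown library with replicate number 3 lay apart below the others. On the log2 scale the change was -0.31 (SE 0.10, edgeR adjusted p = 0.0101), and the call was lost when control replicate 3 was left out (edgeR adjusted p = 0.0694). Without knockdown replicate 3 the change was -0.20 (edgeR adjusted p = 0.0372). Over the alternatives of that result the adjusted p ran from 7.95e-05 (without the filter on low counts) to 0.0694.

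The level of ALDOA needs care. Its control level was 9.07 ± 0.909 CPM per kilobase of the longest transcript, where the enzymes of the adjoining steps, GPI and TPI1, were at 224 and 572 CPM per kilobase (SD, n = 3). In GENCODE 29, 93.8% of the coding bases of ALDOA are also exon of a second protein-coding gene on the same strand, ENSG00000285043 (30053090 to 30070420). That gene had 287 counts over the controls and 241 over the knockdown libraries, beside 1714 and 1187 for ALDOA. How reads on shared exons were assigned is not stated. The ALDOC share, 91.0 ± 0.650% without and 88.1 ± 1.49% with the knockdown (SD, n = 3; exact permutation p = 0.10), is therefore a share of assigned counts, and may not be the share of aldolase mRNA.

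TPI1 and GAPDH, which act on the triose phosphates, fell as well. TPI1 (ENSG00000111669, chromosome 12, 6867119 to 6870948, plus strand) was at 1012, 1011 and 1004 CPM across the controls, against 774, 772 and 764 CPM after knockdown. The libraries of each group were almost equal, so the difference stood out from a very small spread. On the log2 scale the change was -0.39 (SE 0.03; edgeR adjusted p = 2.92e-13). TPI1 shares 12.6% of its 50-base stretches with other genes, mainly the pseudogene TPI1P1, and HK2 and GAPDH share 8.16% and 7.77% of theirs, with HK2P1 and with GAPDH pseudogenes. How such reads were assigned is not stated, and the effect on the counts was not tested.

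GAPDH (ENSG00000111640, chromosome 12, 6533927 to 6538374, plus strand) was the most abundant member and changed the least among those that fell. It was at 2856, 2752 and 2871 CPM across the controls, against 2411, 2468 and 2415 CPM after knockdown. The groups did not overlap, and 86.0% of the control level was left. On the log2 scale the change was -0.22 (SE 0.02, edgeR adjusted p = 1.99e-08). Of the coding bases of GAPDH, 21.5% lie opposite an antisense gene model, and the strand setting of the counting is not given. GAPDH is a common reference gene in expression assays. Of 11 other common reference genes, a list added after the data were seen, 5 were lower, 3 higher and 3 had no call. All genes tested were 30.5% lower and 29.4% higher by the same calls. ACTB, the cytoplasmic actin, rose by 0.24 on the log2 scale, and HPRT1, of purine salvage, was at -0.67. TBP and RPLP0, of basal transcription and the ribosome, were at -0.19 each, and B2M and SDHA, of antigen presentation and the respiratory chain, rose by 0.28 and 0.19 on the log2 scale. GUSB and YWHAZ had log2 fold changes of 0.00 and 0.03 and did not pass the test.

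PGK1 (ENSG00000102144, chromosome X, 77910739 to 78129296, plus strand), the kinase that ends this stretch of the pathway, was at 1102, 1104 and 1079 CPM across the controls, against 713, 696 and 742 CPM after knockdown. The fall was again wider than the spread in either group, and 65.5% of the control level was left. PGK1 thus changed by -0.61 on the log2 scale (SE 0.03; edgeR adjusted p = 1.09e-16).

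Because the members fell by unequal amounts, the make-up of their counts differed between the groups. GAPDH took 44.4, 43.6 and 44.5% of the 9 genes' counts in the control group and 49.1, 49.9 and 49.2% after knockdown. PGK1 took 17.1 ± 0.393% and 14.6 ± 0.530%, and GPI 15.2 ± 0.139% and 14.2 ± 0.239% (SD, n = 3). These groups did not overlap, with an exact permutation p = 0.10 for each, the smallest possible. TPI1 took 15.8 ± 0.234% and 15.6 ± 0.0945% (SD, n = 3; exact permutation p = 0.40), which did not pass.

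**Figure D4:**
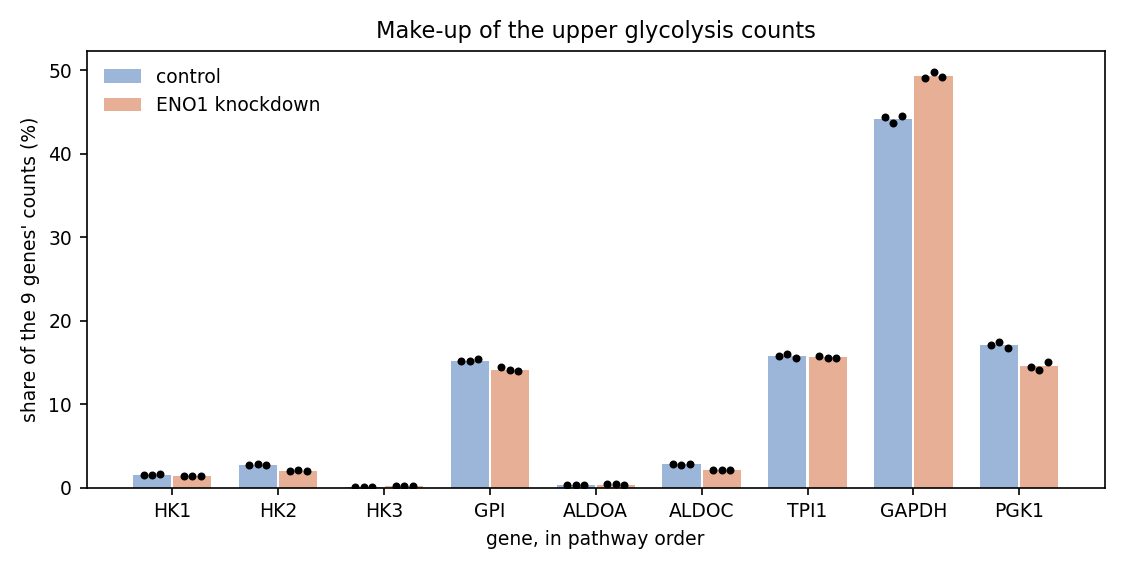
Share of each gene in the summed counts of the 9 genes, in percent; bars are group means (3 control, 3 ENO1 knockdown) and points are libraries. GAPDH took 43.6 to 44.5% in the controls and 49.1 to 49.9% in the knockdown libraries, while PGK1 and GPI took smaller shares in the latter.

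Per kilobase of the longest transcript, the order of the 9 levels was the same in both groups. It ran GAPDH, TPI1, GPI, PGK1, ALDOC, HK2, HK1, ALDOA and HK3, from 1507 ± 34.7 to 1.80 ± 0.160 CPM per kilobase in the controls and from 1297 ± 16.9 to 3.56 ± 0.247 CPM per kilobase in the knockdown libraries (SD, n = 3). GPI and PGK1 could not be separated in the controls, at 224 CPM per kilobase each with overlapping libraries. In the knockdown libraries they were at 161 and 147 CPM per kilobase and did not overlap. With the union of exons as the length PGK1 ranked above GPI in both groups. With the median transcript length, an alternative chosen after seeing the data, the order was not the same in both groups. HK1 then stood above HK2, at 138 against 33.8 CPM per kilobase in the controls, and HK2 ranked below HK3 in the knockdown libraries, at 19.2 against 21.9 CPM per kilobase. GAPDH ranked highest under all 3 lengths.

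GAPDH and TPI1 lie on the short arm of chromosome 12 with ENO2, the neuronal enolase. TPI1 starts 328745 bases after the end of GAPDH, and ENO2 starts 42797 bases after the end of TPI1. Of the 22 protein-coding genes tested between the start of GAPDH and the end of ENO2, these 3 included, 9 were lower, 3 higher and 10 had no call. GAPDH, TPI1 and ENO2 are themselves among the lower ones. Across all genes tested, 30.5% were lower and 29.4% higher. ENO2 had a log2 fold change of -1.56 and the mitotic gene CDCA3 of -0.66, while CD4, a surface receptor of monocytes and T cells, rose by 0.22 and the transcription factor gene ZNF384 by 0.48. USP5, a deubiquitinase whose gene ends 487 bases before TPI1, had a log2 fold change of -0.06 with a standard error of 0.04 and did not pass (edgeR adjusted p = 0.172). Over all members, 9 of the 18 nearest tested coding genes on either side, leaving out genes that overlap a member, were lower. The other 9 had no call and none was higher. Their median log2 fold change was -0.17, where 30.5% of all genes tested were lower and 29.4% higher. SPSB2 overlaps TPI1 by 14 bases and was therefore not counted as a neighbour. It rose by 0.43 on the log2 scale (edgeR adjusted p = 9.98e-05). The lower neighbours were TSPAN15 beside HK1 at -1.57, TLCD3B beside ALDOA at -0.87, IFFO1 and the condensin gene NCAPD2 on either side of GAPDH at -0.57 and -0.34, and GARRE1 beside GPI at -0.52. TSPAN15 and TLCD3B had low levels, at 1.59 and 2.58 CPM in the controls, with standard errors of 0.34 and 0.25. TAF9B beside PGK1 was at -0.40, LRRC23 beside TPI1 at -0.34, and PIGS and SPAG5 on either side of ALDOC at -0.20 and -0.14. Besides USP5, those with no call were SUPV3L1, M1AP, POLE4, TSPAN17, UIMC1, PDCD2L, PPP4C and COX7B, a respiratory chain subunit beside PGK1, with log2 fold changes from -0.21 for PDCD2L to 0.06 for TSPAN17. Neither neighbour of HK2 or HK3 was called.

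The members were set beside the rest of the pathway. Of 20 other glycolytic enzymes and isozymes, 12 could be tested, of which 8 fell and 3 rose. Their median change was -0.46 on the log2 scale. That list holds the targeted ENO1 itself. For comparison, 30.5% of all genes tested were lower and 29.4% higher. PFKP, the platelet phosphofructokinase, and PFKM, the muscle form, rose by 0.86 and 0.65 on the log2 scale, and PFKL, the liver form, was at -0.27. The level of PFKM was low, at 1.70, 1.97 and 1.93 CPM in the controls. After knockdown it was at 2.42, 3.95 and 2.41 CPM, with replicate 2 apart from the others (edgeR adjusted p = 0.0136). ADPGK, which phosphorylates glucose at the expense of ADP, rose from 114 ± 2.65 to 153.5 ± 7.14 CPM (SD, n = 3; log2 fold change 0.43, edgeR adjusted p = 1.83e-10). Several enzymes beyond PGK1 fell, PGAM1 by 0.51, PKM by 0.50 and LDHA and LDHB, the lactate dehydrogenase subunits, by 1.02 and 0.60 on the log2 scale. GAPDHS, the testis form of GAPDH, was below 1 CPM in both groups.

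**Figure D5:**
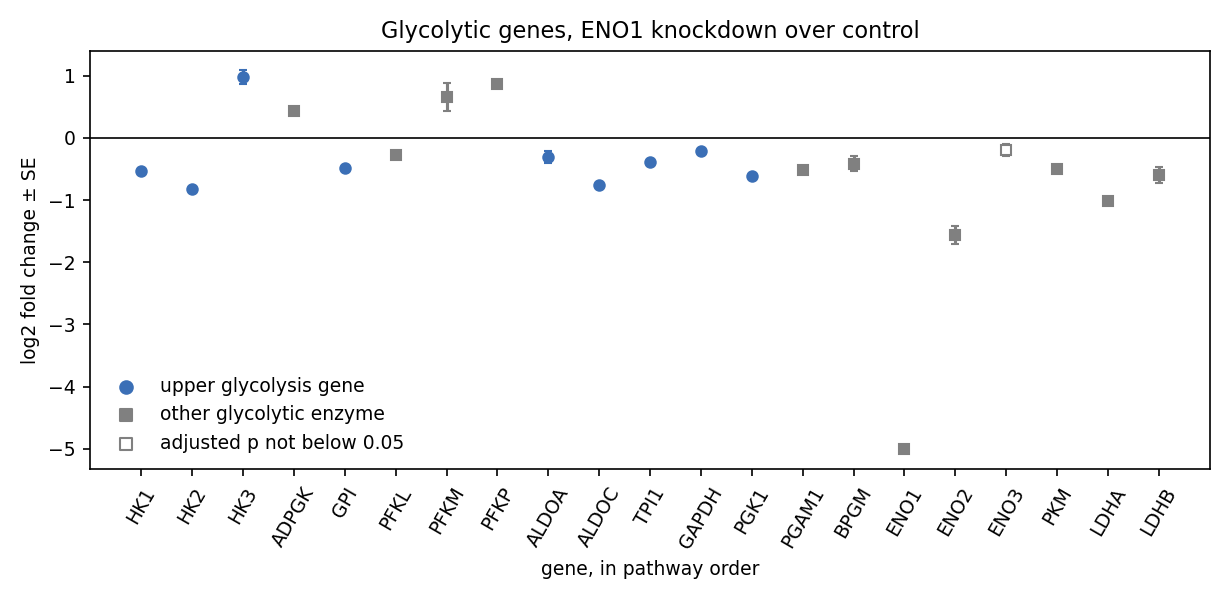
Log2 fold change with its approximate standard error, ENO1 knockdown over control, for the 9 upper glycolysis genes (circles) and the 12 other glycolytic enzymes tested (squares), in pathway order; an open symbol did not pass the test. Besides ENO1 at -4.998 most genes lie between 0 and -1, and HK3, ADPGK, PFKM and PFKP lie above 0.

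Genes that supply glucose or draw from the upper pathway were mixed. Of 32 such genes 27 were tested, with 13 lower, 8 higher and a median log2 fold change of -0.10. The shares over all genes tested were 30.5% lower and 29.4% higher. The glucose transporter SLC2A3 and the phosphoglucomutases PGM1 and PGM2, which link glucose 6-phosphate to glycogen and pentose sugars, had log2 fold changes of -0.79, -1.08 and -0.89. SLC2A4, the insulin-responsive transporter, was at -1.17. Those that rose most were SLC2A14 at 1.46, a near copy of SLC2A3 whose reads may be split with it, and, at lower sizes, PGM2L1 at 0.65, the fructose bisphosphatase FBP1 at 0.61 and the glycerol kinase GK at 0.56. Control levels were low for SLC2A14, PGM2L1, SLC2A4, FBP1 and PGM1, at 1.36, 3.66, 5.18, 7.27 and 9.79 CPM. The main transporter SLC2A1 rose by 0.11.

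Among 29 regulators and partners of these enzymes 24 were tested, of which 8 were lower and 11 higher, with a median log2 fold change of 0.07. Beside them, 30.5% of all genes tested were lower and 29.4% higher. MYC, whose protein binds the E-box, fell from 566 ± 7.97 to 313 ± 6.27 CPM and its partner MAX from 102.0 ± 0.933 to 51.4 ± 1.74 CPM (SD, n = 3). HIF1A rose by 0.15 on the log2 scale, EPAS1, which encodes HIF-2 alpha, rose by 2.50 from a low level of 1.64 CPM, and their partner ARNT was at -0.01 with no call. PFKFB4, which sets the level of fructose 2,6-bisphosphate, was at -0.89. TXNIP, a glucose-responsive brake on glucose uptake, rose by 1.39, and VDAC1, a mitochondrial channel that HK1 and HK2 dock on, fell by 0.38 on the log2 scale. VDAC2 and VDAC3, of the same family, were at -0.07 and 0.02 with no call. The glucose-sensing factor MLXIPL and the antioxidant regulator NFE2L2 rose by 0.67 and 0.33.

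The genes most like HK2, GAPDH and PGK1 were sought by the Euclidean distance between centred log2 CPM profiles over the 6 libraries, among 9020 genes with a mean of at least 10 CPM. Nearest to HK2 were the galactosyltransferase B4GALT1, the tryptophanyl-tRNA synthetase WARS1 and the kinase MAPKAPK2, at distances of 0.04, 0.06 and 0.07 where the median gene was at 0.96. Nearest to PGK1 were the lamin LMNB1, the transcription factor CEBPG and ARHGEF6, at 0.03 each. Nearest to GAPDH were the proteasome inhibitor PSMF1, the chaperone DNAJB12 and USP6NL, at 0.03, 0.04 and 0.04. With 2 groups of 3 libraries such likeness rests mostly on the size of the difference between the groups.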

How the data were processed

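The authors deposited 1 table of raw read counts for Ensembl genes. The submitters' processing notes list HISAT2 2.0.5 and hg38. No source used here names the counter, the annotation or the strand setting. Columns were matched to samples by group and replicate number.

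The test was the quasi-likelihood one of edgeR 4.0.16 under R 4.3.3 (TMM, filterByExpr, robust quasi-likelihood fit, two-sided, Benjamini-Hochberg, threshold 0.05), which left 14635 of 23227 genes. Standard errors are approximate: the size of the log2 fold change over the square root of F. The procedure was tested on simulated data. Lengths, positions and overlaps came from GENCODE 29 on GRCh38, and start-site sequences from RefSeq (GRCh38.p14), where all 9 members matched. Chi-square statistics divided by degrees of freedom were 2.10 to 4.20 between libraries of a group and 71.0 to 76.4 across groups, so no library was a copy of another.

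The members, lists and tests were chosen with earlier results of these data known. Named were all members, ENO1, the list genes of largest change, nearest tested neighbours and the 3 most similar profiles. Other named genes are examples chosen after their values were seen, and some list genes are not reported here. Alternatives were other scalings and filters, DESeq2 1.42.0, limma-voom (limma 3.58.1), a replicate block, removal of mitochondrial genes or of each library, and other lengths.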

Additional observations from a re-analysis of the deposited data

How the results depend on the processing

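Every member kept the sign of its log2 fold change under all alternatives run. The count of lower members was 7 to 8 with 1 library left out, 7 at a threshold of 0.01, and 8 otherwise; ALDOA was the gene lost. HK3 was called higher in all. The difference in HK2 share was -7.97 percentage points, -7.11 without length correction, -8.86 with union exon length and -4.50 with median transcript length, and -8.36 to -7.41 with 1 library left out. The difference in ALDOC share was -3.75 to -2.42 percentage points with 1 library left out. The median of all genes was 0.06 on the log2 scale with library size scaling, where HK2 was at -0.77 and GAPDH at -0.16. It was 0.07 without the filter and 0.08 with DESeq2, both over more genes, where HK2 was at -0.84 and -0.83. Leaving out control replicate 2 and knockdown replicate 3 together, the 2 libraries least like their own groups, an alternative chosen after seeing the data, left 8 lower and 1 higher, with a difference in HK2 share of -7.56 percentage points. With the replicate block 8 members were lower and 1 higher, and the HK2 to HK1 log2 ratio differed by -0.29 in the pairing by replicate number (exact sign-flip permutation p = 0.25, the smallest 3 pairs allow). Same-numbered libraries did not deviate together (correlations of -0.02 to 0.01), so the number alone does not pair them. HK3 rests on the fewest counts of the members, 413 in the controls and 699 in the knockdown libraries.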
